A study of Caenorhabditis elegans with 2 samples.

Results

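The histone genes of Caenorhabditis elegans were examined for binding of the transcription factor GMEB-2 in late embryos. The members were all protein-coding genes of the Ensembl annotation of assembly WBcel235, the same assembly as build ce11, whose symbol is his- followed by a number. There were 72 such genes among 19973 nuclear protein-coding genes, on 6 chromosomes. Bound DNA was measured by ChIP-seq, the sequencing of DNA that precipitates with a protein, with an antibody against GFP, on sonicated chromatin of whole late embryos of pooled sex, taken 5 h after the culture was synchronized by egg bleaching. The embryos were of strain OP622, genotype unc-119(tm4063) III; wgIs622, in which an integrated transgene expresses GMEB-2 fused at its C terminus to GFP and FLAG. There were 2 biological replicates of 1 group, both with this mutation and this transgene, so no comparison between conditions was possible and no test was made. The binding recorded is that of the tagged protein, and in whole embryos few strongly bound cells and many weakly bound cells cannot be told apart.

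Histones are the proteins that package DNA: H2A, H2B, H3 and H4 form the core of the nucleosome, and linker histones bind the DNA between nucleosomes. The core histones of dividing cells come from replication-dependent genes, which are short, lack introns, lie in clusters as head-to-head pairs that share a promoter, and end their messages in a hairpin instead of a poly(A) tail. Replacement histones such as H3.3 are made outside of DNA replication and have ordinary, dispersed genes. GMEB-2 is related to the vertebrate glucocorticoid modulatory element binding proteins, which bind DNA through a SAND (KDWK) domain.

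The sequences under the histone peaks and between the histone genes are shown first, since several of them have identical copies elsewhere. All are given on the + strand of WBcel235 as RefSeq holds it, and capitals mark, on either strand, the word TATAAA and GC-rich words. The first of the GC-rich words searched was ACGCGC, another with the same composition was GCGCAC, and the last was CGCGCA. The first is the 101 bases centred on the summit at his-37, an H4 gene, at chrV:9546984-9547084; its single marked word is a TATAAA close to the annotated 5′ end. The next pair are the 101 bases centred on summits that lay inside H3 coding exons, in his-32 at chrIV:8334376-8334476 and in his-59 at chrIV:7488429-7488529, and hold none of the marked words. The fourth is the whole sequence between the 5′ ends of his-35 (H2A) and his-41 (H2B), at chrV:9545289-9545535, with a pair of adjacent GC-rich words. The fifth lies between the H4 gene his-50 and the H3 gene his-49, at chrV:8847765-8847882; the region between his-28 and his-27, at chrV:8889860-8889977, has the same 118 bases, so short reads from either place match both. The last lies between his-2 and his-1, at chrV:16042344-16042459. From the his-50/his-49, his-28/his-27 and his-2/his-1 regions the 60 bases beside each start codon were left off.
his-37: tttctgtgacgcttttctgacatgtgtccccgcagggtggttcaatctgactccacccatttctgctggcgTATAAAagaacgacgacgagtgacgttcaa
his-31/his-32: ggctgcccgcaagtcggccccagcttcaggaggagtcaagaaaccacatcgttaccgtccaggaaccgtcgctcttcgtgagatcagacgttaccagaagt
his-60/his-59: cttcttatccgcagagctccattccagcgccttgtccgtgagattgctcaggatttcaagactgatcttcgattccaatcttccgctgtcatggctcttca
his-35/his-41: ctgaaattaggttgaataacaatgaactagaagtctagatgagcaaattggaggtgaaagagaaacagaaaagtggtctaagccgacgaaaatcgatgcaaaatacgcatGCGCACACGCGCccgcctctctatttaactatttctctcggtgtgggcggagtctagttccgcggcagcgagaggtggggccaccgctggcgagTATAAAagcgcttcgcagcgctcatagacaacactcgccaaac
his-50/his-49: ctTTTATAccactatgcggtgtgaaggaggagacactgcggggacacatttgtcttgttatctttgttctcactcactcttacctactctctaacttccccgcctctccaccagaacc
his-2/his-1: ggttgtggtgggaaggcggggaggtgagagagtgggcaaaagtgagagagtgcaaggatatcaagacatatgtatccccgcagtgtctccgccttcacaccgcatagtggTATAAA

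GMEB-2-GFP peaks were found at few histone genes. In the list of peaks thresholded by the irreproducible discovery rate (IDR), which keeps peaks that rank alike in both replicates, 3 peaks had a summit from 1000 bp upstream to 500 bp downstream of the 5′ end of a histone gene. They touched 5 of 72 genes (6.94%), against 2.22% of all protein-coding genes. The genes were his-67 and his-68, his-31 and his-32, and his-37, and 4 of them form head-to-head pairs in which both genes share a peak. With overlapping windows merged, so that neighbours count once, 3 of 36 histone promoters (8.33%) held such a summit, against 2.00% of all merged promoters. Each share of histone genes rests on these 3 peaks.

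Over the whole relaxed lists the share of histone genes with a summit was near or under the background. The authors' relaxed list for both replicates together (the joint list), which holds peaks and background, had 30000 entries, and a summit lay in the window of 24 of 72 histone genes (33.3%) against 40.2% of all genes. With windows merged it was 14 of 36 (38.9%) against 41.2%. The relaxed list of replicate 1 had a summit at 22 genes (30.6%, against 41.2%), and that of replicate 2 at 25 genes (34.7%, against 41.0%). A summit in each was found at 19 genes (26.4%, against 25.2%), but not always in the same place. At his-71, for example, the strongest summit lay past the 5′ end in replicate 1 and upstream of it in replicate 2. A further 3 genes had a summit in replicate 1 alone and 6 in replicate 2 alone. The remaining 44 genes had none in any of the lists. Among the strongest 5000 joint peaks 11 histone genes (15.3%) had a summit, against 10.3% of all genes, and 5 genes (6.94%, against 4.56%) had summits among the strongest 5000 of each replicate.

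**Figure D1:**
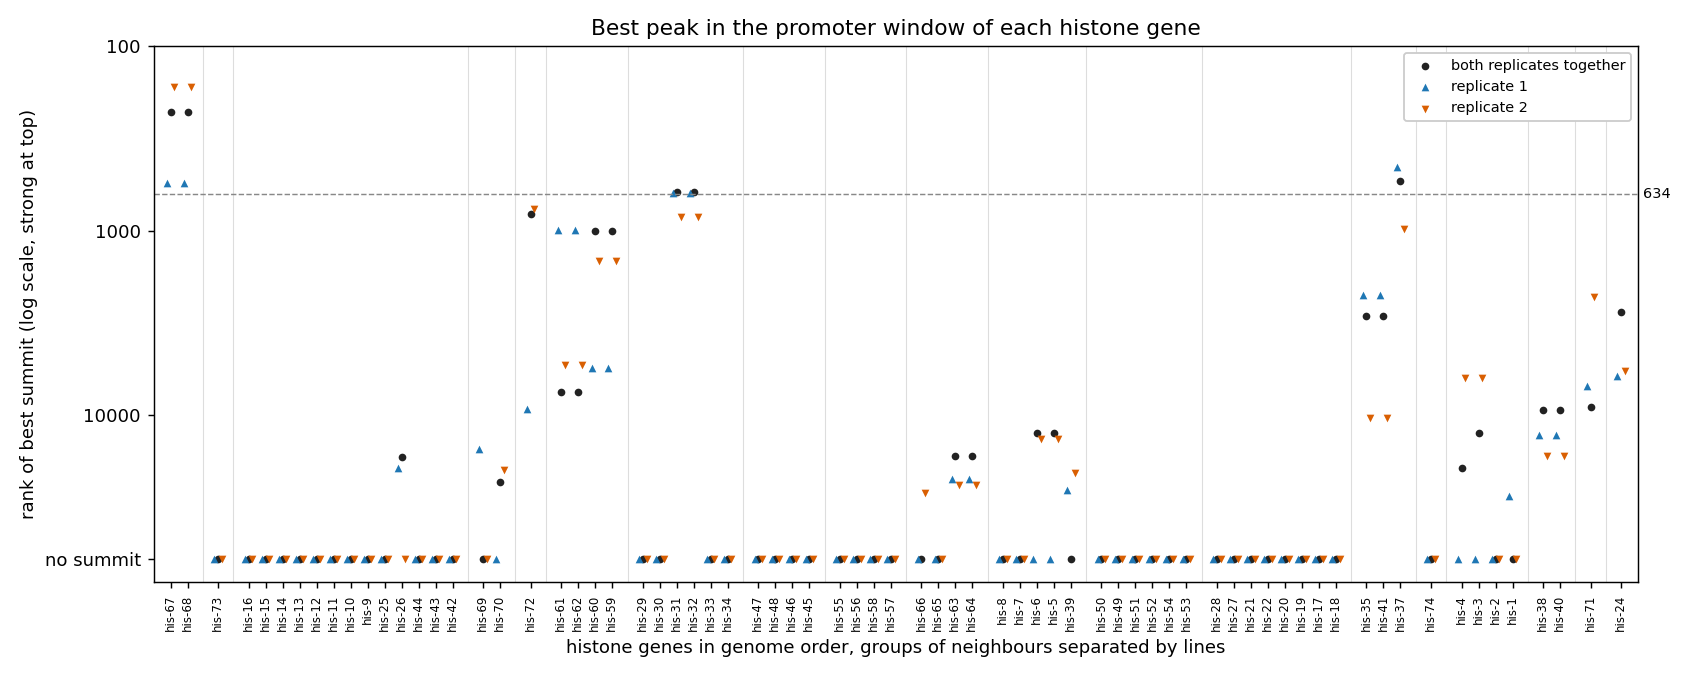
Rank of the strongest summit in the window of each of the 72 histone genes, in genome order, in the joint list (circles) and in the lists of replicate 1 (upward triangles) and replicate 2 (downward triangles), on a log axis with strong peaks at the top and a dashed line at the end of the IDR list; genes with none are at the bottom. Only his-67/his-68, his-37 and his-31/his-32 have joint ranks within the 634 of the IDR list.

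The strongest histone peak lay between his-67 and his-68, an H4 and an H2A gene. These genes lie on chromosome I, at 9988452 to 9988763 on the minus strand and 9989132 to 9989515 on the plus strand, with 368 bp between their 5′ ends. The peak, at 9988804 to 9989179, ranked 228 of the 634 IDR peaks, with an authors' signal value of 162; the IDR list runs from 91.8 to 1083 with a median of 135. Its summit was 229 bp upstream of his-67 and 140 bp upstream of his-68. Replicate 1 gave it rank 554 with a signal of 44.1 and replicate 2 rank 166 with 122, on scales of their own. The replicates' summits lay 16 bp to the right and 52 bp to the left of the joint summit. No 36-base word under the peak has a second match in the nuclear genome. The closest other protein-coding gene was alg-5, an Argonaute gene, whose 5′ end was 810 bp away with the summit on its upstream side, so the same peak also falls in the window of alg-5.

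The peak at his-37, an H4 gene without a head-to-head partner, ranked 540 with a signal of 99.3. It lay on chromosome V at 9546846 to 9547221, and its summit fell 71 bp before the start of the gene, which runs from 9547105 to 9547607. Replicate 1 ranked it 454 with a signal of 47.2, and replicate 2 ranked it 986 with 50.5. The summits of both replicates lay within 74 bp of the joint summit. The same neighbourhood holds the head-to-head pair his-35 and his-41, whose joint peak at 9545330 to 9545705 ranked 2900 with a signal of 57.5, below the IDR threshold. That summit was 18 bp upstream of his-41 and 230 bp upstream of his-35; replicate 1 ranked it 2245 with 29.9 and replicate 2 ranked it 10315 with 27.6. Unlike most histone genes, these 3 have an annotated 5′ untranslated part. The closest other gene, C50F4.6, has its 5′ end inside the record of his-41 and has the his-35/his-41 summit in its own window too.

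At his-31 and his-32 the summit was inside a gene. The peak, on chromosome IV at 8334238 to 8334613, ranked 617 with a signal of 93.1, just above the lowest value of the IDR list. Its summit fell in the coding exon of his-32, the H3 gene of the pair, 121 bp past its 5′ end and 443 bp upstream of the H4 gene his-31. Replicate 1 ranked it 623 with 42.2 and replicate 2 ranked it 843 with 53.2, and the replicates' summits were 7 bp to either side. Of the 36-base words under this peak, 78.6% have no other match in the genome. The closest other gene, lys-10, a lysozyme gene inside the same group of histone genes, had its 5′ end 1600 bp away.

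At a cut of 634 ranks replicate 1 held more of these calls than replicate 2. All 3 peaks ranked within the first 634 of replicate 1, with his-31/his-32 near the cut at 623. In replicate 2 only the his-67/his-68 peak did, which leaves 2 genes and 1 peak. That peak ranked higher in replicate 2 (166) than in replicate 1 (554). Below the IDR threshold, his-72 and his-60/his-59 ranked higher in replicate 2 and his-35/his-41 in replicate 1. The lowest IDR peak at a histone gene had a signal of 93.1 and the strongest histone peak below the threshold, at his-72, had 81.8.

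Histone windows held 25 joint summits, of which 16 were the strongest in the window of at least 1 gene and 9 were weaker second summits, at ranks 5936 to 28977. Of the 25, 7 were among the strongest 5000, the 3 IDR peaks and 4 below the IDR threshold, at ranks 810 to 2900. The strongest of those 4 was at his-72, an H3.3 gene, at rank 810 with a signal of 81.8. Replicate 2 ranked it 769 with 54.8 and replicate 1 only 9266 with 20.8, although both placed its summit within 32 bp of the joint summit. It lay on chromosome III at 12368624 to 12368999, with its summit in a noncoding part of the gene 238 bp past the 5′ end. A separate joint summit in a coding exon of his-72, at rank 2626 with a signal of 58.9, lay 1081 bp past the 5′ end and so outside the window. Next came his-60 and his-59, an H4 and H3 pair, at rank 1007 with 76.9; its summit lay in the coding exon of his-59, 230 bp past the 5′ end, and the ranks were 5535 (24.1) in replicate 1 and 1465 (45.5) in replicate 2. The others were the his-35/his-41 peak and his-24. The last, a linker histone gene, had rank 2771 with 58.0, in its coding exon 179 bp past the 5′ end, with ranks of 6149 (23.4) and 5782 (32.3) in the replicates.

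The other 9 of the 16 strongest summits ranked from 7472 to 23011, with signals of 44.9 down to 30.1. At his-61 and his-62 (H2A and H2B) the joint rank was 7472. Replicate 1 ranked a summit 120 bp away, at the 5′ end of his-62, 994 with 36.4. Replicate 2 had no summit within 200 bp. Its strongest summit in these windows, at rank 5361 with 33.0, lay inside his-62, 318 bp past the 5′ end. At his-71, an H3.3 gene, the joint rank was 9081 with 42.5, and the replicate 2 summit 3 bp away ranked 2287 with 40.7. No replicate 1 summit lay within 200 bp of that joint summit. At his-38 and his-40 the joint rank was 9414 with 42.0 and the replicates ranked it 12826 and 16747. The pair his-6 and his-5 had a joint rank of 12459 with 38.4, and a summit in replicate 2 alone. Replicate 1 had a summit within 200 bp of 12 of these 16, replicate 2 of 13 and both of 9. Over all 25 the counts were 15, 19 and 11.

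Head-to-head pairs made up most of the histone genes, and their joint peaks did not sit in the same place in every kind of pair. There were 31 such pairs with 62 genes, and the 5′ ends were 227 to 368 bp apart with a median of 258, against a median of 475 over all 1745 head-to-head pairs of protein-coding genes within 1000 bp. A joint summit in both windows was found for 9 of 31 histone pairs (29.0%), against 48.0% of all pairs, and an IDR summit for 2 of 31 (6.45%), against 5.50%. In all 4 pairs with an H2A gene and a joint summit (his-67/his-68, his-61/his-62, his-35/his-41 and his-4/his-3) the strongest shared summit lay between the 5′ ends. In 4 of the 5 H3 and H4 pairs with one it lay inside the H3 gene, at his-32, his-59, his-40 and his-63; at his-6/his-5 it lay between the 5′ ends. Weaker second summits lay elsewhere, as in the H2B gene his-62 at rank 17983 and in the H4 gene his-60 at rank 7373. Among these 4 pairs the share of unique 36-base words under the peak ran from 30.8% at his-63 to 84.8% at his-59, and the sequence between the 5′ ends was 85.4% to 100% unique. This split was seen after the peaks were placed and was not tested. Both replicates had their strongest summit in the same part at his-67/his-68, his-35/his-41, his-31/his-32, his-60/his-59 and his-38/his-40. At his-61/his-62 that of replicate 1 lay at the 5′ end of his-62 and that of replicate 2 inside his-62. At his-63/his-64 replicate 1 had it in his-63 and replicate 2 had it 409 bp past the 5′ end of his-64. Only replicate 2 had a summit at his-4/his-3 and his-6/his-5.

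**Figure D2:**
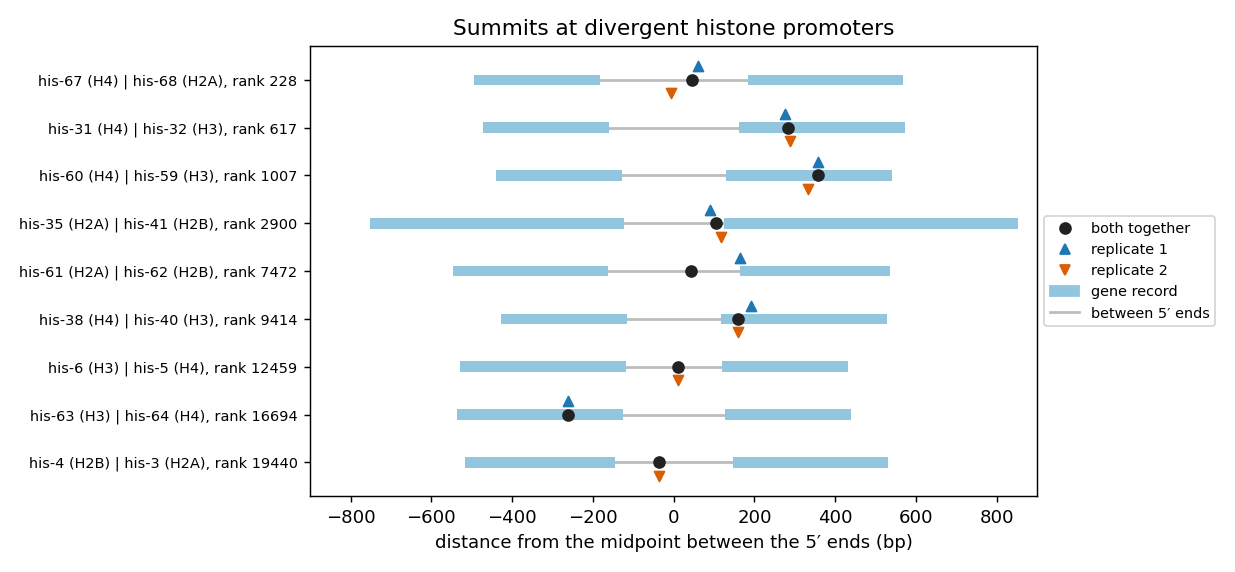
Strongest shared joint summit and the replicate summits near it at the 9 head-to-head histone pairs with a joint summit in both windows, as distance in bp from the midpoint between the 5′ ends; blue bars are the gene records, and replicate summits are drawn where they lie within 200 bp of the joint summit. The joint summit lies over the H3 gene at 4 pairs and between the 5′ ends at 5 pairs.

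Whether a histone gene had a summit moved with how much of its sequence is unique in the genome. Uniqueness was taken as the percentage of words of 36 bases with a single match in the nuclear genome. It had a median of 20.7% over the histone windows, with quartiles of 0.136% and 80.6%, against 100% over all genes. It was at least 90% in 11 histone windows, under 50% in 41 and 0% in 17. The 24 genes with a joint summit had a median of 86.6% and the 48 without one 3.82%. Of the 11 windows of at least 90%, 9 (81.8%) had a joint summit, against 42.3% of all such windows, and 3 (27.3%) an IDR summit, against 2.34%. The strongest summits of these 9 genes are 7 distinct joint peaks. The 3 with an IDR summit were his-67, his-68 and his-37, and his-67 and his-68 share a peak. Of the 61 windows under 90%, 15 (24.6%) had a joint summit, against 26.9%, and 2 (3.28%) an IDR summit, against 1.43%. Those 2, his-31 and his-32, also share a peak.

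The same held for the sequence between the 5′ ends of a pair. At 11 histone pairs it was 79.4% to 100% unique, and 9 of the 11 (81.8%) had a joint summit, against 49.7% of all pairs at or above 50%. In this class 2 of 11 histone pairs (18.2%) had an IDR summit, against 5.77% of all. At the other 20 pairs it was 0% to 16.1% unique, with 17 at 0%, and 0 of 20 had a joint summit, against 4.84% (3 of 62) of all pairs under 50%. The unique pairs without a joint summit were his-8/his-7 at 79.4% and his-2/his-1 at 100%. How reads with several matches were treated is not given in the sources used here. The part of uniqueness in these counts was not tested.

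**Figure D3:**
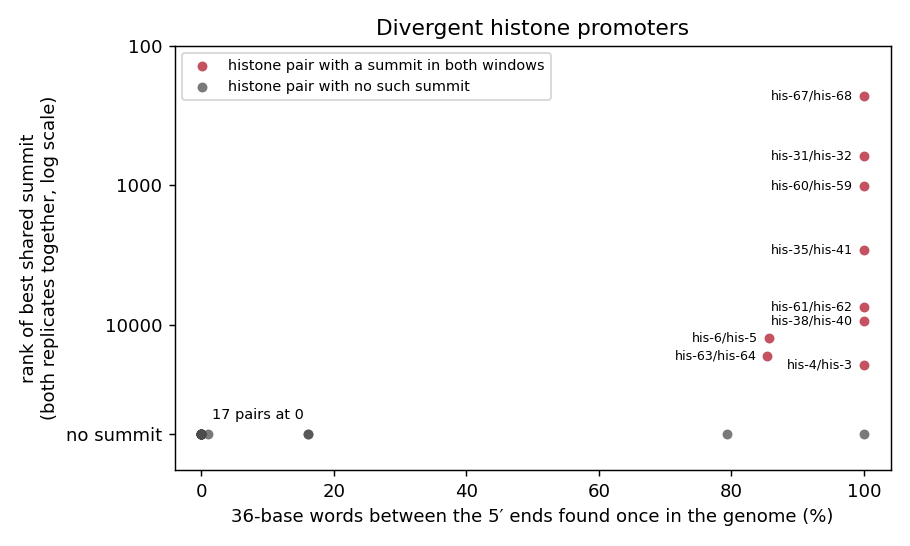
Each of the 31 head-to-head histone pairs by the share of 36-base words between its 5′ ends with a single match in the nuclear genome (percent) and the rank of its joint peak, on a log axis with pairs without a joint summit in both windows at the bottom. All 9 pairs with a peak lie at or above 85.4%, and the 20 pairs under 50% have none.

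Many of these regions are copies of one another. The 31 sequences between the 5′ ends comprised 21 distinct sequences; 16 regions had an identical copy elsewhere among them and 15 had none, and the largest group of identical copies held 4. The his-50/his-49 and his-28/his-27 regions shown above matched at 238 of 238 bases. The his-46/his-45 and his-55/his-56 regions matched at 257 of 258 bases (99.6%) and neither had a joint summit. The his-8/his-7 region matched that of his-54/his-53 at 279 of 292 bases (95.5%), again without a joint summit at either. The his-2/his-1 region matched that of his-6/his-5 at 207 of 236 bases (87.7%), and only his-6/his-5 had one.

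By genomic position the histone genes fell into 19 groups with gaps of at most 10000 bp, 14 of them with 2 to 13 genes and 5 with a single gene. A joint summit lay in the window of at least 1 gene in 13 groups, and an IDR summit in 3. The largest group, 13 genes on chromosome II from 13817760 to 13828697, had a joint summit at his-26 alone, at rank 16932, and 15.6% of its words are unique. No gene had a joint summit in 4 groups of several genes, with 22 genes in all. These were the groups on chromosome V from 8847393 to 8854053 (6 genes, 0% unique) and from 8889488 to 8898539 (8 genes, 4.50%), and the groups of 4 genes each on chromosome IV that begin at 11324056 (17.7%) and 11337853 (27.6%). At the other end, the 4 genes his-59 to his-62 on chromosome IV (86.2% unique) held 14.5 joint summits per 10 kb of genes and windows, and his-35, his-41 and his-37 (99.0%) held 13.0, against 2.99 over the genome.

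By histone type, the shares stand beside backgrounds of 40.2% for the joint list and 2.22% for the IDR list, with a shared peak counted for both genes. Of 16 H4 genes 8 (50%) had a joint summit and 3 (18.8%) an IDR summit (his-67, his-37 and his-31), with a median of 36.3% unique words. Of 15 H3 genes 5 (33.3%) had a joint summit and 1 (6.67%), his-32, an IDR summit, at a median of 30.4%. Of 19 H2A genes 4 (21.1%) had a joint summit and 1 (5.26%), his-68, an IDR summit, at a median of 6.96%. Of 16 H2B genes 3 (18.8%) had a joint summit and 0 an IDR summit, at 13.8%. With each summit given only to its nearest 5′ end, the IDR genes were his-37, his-32 and his-68, which is 1 each of H4, H3 and H2A. Types were not compared by a test, since pairs share peaks.

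Of the 5 replacement H3.3 genes 3 (60%) had a joint summit, against 40.2% of all genes, and 0 an IDR summit, against 2.22%. Their windows had a median of 100% unique words. The 3 with a joint summit were his-72 at rank 810, his-71 at rank 9081 and his-70 at rank 23011. At his-70 the summit lay in the coding exon with a signal of 30.1. The gene his-69 had only a replicate 1 summit, at rank 15231 with 17.6, and his-74 had none. The short gene his-73 had none either.

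**Figure D4:**
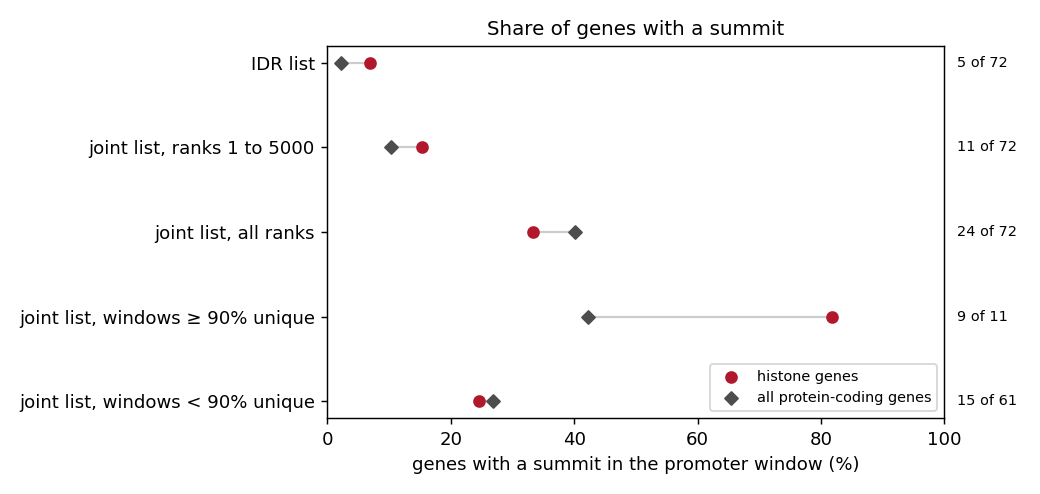
Share of histone genes (percent) with a summit in the window, beside the share of all protein-coding genes, for the IDR list, the joint list and the joint list split by uniqueness of the window. Histone genes lie above the background in the IDR list and in joint ranks 1 to 5000, below it over the whole joint list, and far above it among windows of at least 90% unique words.

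None of the 25 joint summits in histone windows lay within 200 bp of a tRNA or snoRNA gene. The gene body nearest to a histone 5′ end was the snoRNA gene Y49E10.36, which lies in his-72, 506 bp from its 5′ end, 268 bp from the his-72 summit in the window and 350 bp from the his-72 summit outside it. No other histone gene had one within 1000 bp. The next were his-24 at 3811 bp from a tRNA gene, his-68 at 4425 bp and his-67 at 4794 bp from the snoRNA gene T23D8.11, and his-39 at 8587 bp from F25G6.21.

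Histone promoters differed in base composition from other promoters. The 300 bases upstream of the 5′ end had a median GC content of 46.5%, against 33.3% over all genes, and the 72 sequences comprised 51 distinct ones. For 65 of the 72 the annotated 5′ end is at a start codon, so these bases also hold any untranslated part that is not annotated. TATAAA, on either strand, was in 51 of 72 (70.8%), against 39.6% of all promoters of this length. Of 3 GC-rich words that partly overlap one another, GCGCAC was in 11 (15.3%, against 5.86%), ACGCGC in 3 (4.17%, against 6.39%) and CGCGCA in 2 (2.78%, against 6.35%). TACGTA, the core word known for the vertebrate proteins, was in 0 of 72, against 3.01%. GTTCGANNC, a spelling of the B box of tRNA genes, was in 0 of 72, against 1.43%. Genes of a head-to-head pair share most of these bases, so a word between them can count for both. The genes with GCGCAC were his-73 and both genes of his-60/his-59, his-46/his-45, his-55/his-56, his-63/his-64 and his-35/his-41. The 51 sequences with TATAAA comprised 34 distinct ones. A word match is a description of the sequence and not a binding site.

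The hairpin of replication-dependent messages was common among the histone genes and rare elsewhere. It was searched as a stem of 6 bases that opens with GG and ends with T, a loop of 4 bases and the complementary arm, on the coding strand within 300 bp after the stop codon. It was found at 57 of 72 histone genes (79.2%), 32 to 58 bp after the stop codon. Over all 19973 protein-coding genes it was found at 78 (0.391%), a count that includes these 57. Only a pair of forms occurred, which differ in the last base of the loop: 53 genes had the first and 4 the second of those printed here, with the stem in capitals.
hairpin of 53 genes: GGCCCTctttAGGGCC
hairpin of 4 genes: GGCCCTcttaAGGGCC

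Of the 57 genes with this hairpin 16 (28.1%) had a joint summit and 3 (5.26%) an IDR summit. Of the 15 without it 8 (53.3%) had a joint summit and 2 (13.3%) an IDR summit. The his-67/his-68 peak is counted on both sides, since his-67 has the hairpin and his-68 does not. Over all protein-coding genes the shares were 40.2% and 2.22%. The genes without it were his-24, his-35, his-41, his-37, his-68, the H3.3 genes his-69 to his-72 and his-74, and 5 others. Those 5, his-19, his-39, his-47, his-53 and his-73, had no joint summit. Uniqueness moved with this split too, with a median of 16.3% among the genes with the hairpin and 98.0% among those without. Windows under 50% unique made up 38 of the 57 and 3 of the 15. The parts of hairpin and uniqueness in these counts were not tested.

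Genes that make, carry or process histones were read from 3 lists. Of 12 genes for other histone variants and linker histones, 8 had a joint summit and 0 an IDR summit; of 15 histone chaperone genes 11 and 2; and of 4 genes named for histone mRNA processing 3 and 0. The background shares are those above, 40.2% for the joint list and 2.22% for the IDR list. The IDR genes were unc-85, which encodes an ASF1 chaperone of H3 and H4, and lin-53, which encodes an RbAp46/48 relative found in chromatin assembly and deacetylase complexes. The unc-85 peak ranked 255 with a signal of 154, its summit 497 bp upstream, and ranked 246 (63.9) and 278 (88.9) in the replicates. The lin-53 peak ranked 428 with 113, 262 bp upstream, with replicate ranks of 329 (53.9) and 571 (61.1). The next of the listed genes, below the IDR threshold, were nasp-2, a chaperone gene, and hil-7, a linker histone gene. The nasp-2 summit had rank 643 with 91.0 and lay 981 bp upstream, near the edge of the window. The hil-7 summit had rank 1140 with 73.8 and lay 238 bp upstream.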

How the data were processed

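The data were lists of ChIP-seq peaks on build ce11, from 2 biological replicates of 1 group. Per the labels and the accompanying file listing, the authors called peaks for each replicate alone and for both together, each against a control alignment, and thresholded a list by IDR. The peak caller, aligner, read depth, IDR threshold and treatment of reads with several matches were not stated in the labels or files, so no interval was computed. The replicate 2 labels name more than 1 sequencer model. Each deposited peak has a signal value, the authors' own, used here for ranks and descriptions inside each list only; all 4 columns belonged to a replicate or to both, with 0 left unassigned. Lists on ce10 were not used here.

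Genes came from Ensembl 115 (WBcel235). Names of identical copies came from RefSeq by WormBase gene ID, since the 72 Ensembl records carry 50 symbols. Chromosome lengths were checked against the peaks. A summit, at a 1-based position, was assigned to every gene whose window held it. Uniqueness was the share of 36-base words found once in the nuclear genome, both strands counted. Scripts used Python 3.11.15, numpy 2.4.6 and matplotlib 3.10.9, and were tested on simulated data with planted summits and repeats. With 1 group, values are descriptions beside the share of all protein-coding genes.

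Members and lists were chosen with earlier results of these data known. The text names histone genes with an IDR summit, the 12 next by joint signal, his-24 and his-69 to his-74, the 5 nearest to a tRNA or snoRNA gene, listed genes with an IDR summit, the 4 listed genes of highest joint signal, and the closest other gene at each IDR peak. Other genes were named after their values were seen.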

Additional observations from a re-analysis of the deposited data

How the results depend on the processing

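Of 33 alternatives computed, 22 left the value within 1.5 times. The 5 histone genes with an IDR summit became 3 with a window of 250 bp upstream to 50 bp downstream (his-37, his-67 and his-68), 2 in the stronger 50% of the IDR list (his-67 and his-68), and 3 when each summit went only to its nearest 5′ end. In that stronger part distinct peaks and merged promoters fell from 3 to 1 each. Taking as many top ranks from 1 replicate's own list gave 2 to 5 genes, 1 to 3 distinct peaks and 1 to 3 merged promoters; the lower values are those without replicate 1. Keeping ranks 1 to 5000 moved the joint count from 24 to 11 genes and the count in both replicate lists from 19 to 5. With 50-base words, an alternative chosen after seeing the data, 18 histone windows instead of 11 were at least 90% unique, and 15 of the 18 had a joint summit. No paired analysis was possible because there was 1 group and no contrast. Depth is unknown, and a histone gene without a summit is not shown to be unbound.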

Other observations

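Other genes of the chaperone and variant lists, named after their values were seen, ranked within the strongest 5000 joint peaks as well. They were spt-16, a subunit gene of the FACT chaperone, at rank 1168, with replicate ranks of 332 and 8684; htz-1, the H2A.Z gene, at 1364; chaf-2, a chromatin assembly factor subunit gene, at 1474; xnp-1, the ATRX relative, at 1865; and emb-5, the SPT6 relative, at 2395. The gene cdl-1, which encodes the protein that binds the histone hairpin, ranked 4697 with a signal of 50.9, 164 bp upstream. The centromeric H3 genes hcp-3 and cpar-1 ranked 15862 and 15946, and csr-1 had no joint summit. On the same chaperone list as spt-16, chaf-2 and unc-85, chaf-1 ranked only 13254, with no replicate 2 summit. The chaperone genes hmg-3, hmg-4 and asfl-1 had no summit in any of the lists, at 100% unique words.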
